A study of Mus musculus with 12 samples.

Results

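Collagens, laminins and the other genes of the extracellular matrix were described in the triceps brachii, a muscle of the upper forelimb, of 12 mice. The genes were chosen by symbol, as every collagen chain (Col, a number, a, a number), every laminin chain (Lam, a letter, a number) and 19 further matrix genes. The rule found 46 of the 10187 genes for which RNA-Seq values were analysed, made of 24 collagens, 6 laminins and 16 of the 19 further genes. Tnc, Lox and Timp1 were not analysed here. A mean of at least 10 normalized reads over the mice was reached by 34 of the 46, and these were the ones tested, among 7247 genes tested in all.

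The mice were male C57/BL6 mice in 4 groups of 3 that crossed activity with genotype. Without a wheel, the wild-type group was named IW and the myostatin-reduced group IM, and with a wheel these were AW and AM, where I stands for inactive and A for active. Wild-type mice had unaltered myostatin, and myostatin-reduced mice carried a floxed Mstn gene that Cre recombinase inactivated. The promoter driving Cre was not given in the sources used here. All mice, the wild-type controls included, were fed chow with 0.025% tamoxifen, the drug that activates Cre, for 6 weeks from 4 months of age. Active mice were moved at 6 months of age into individual cages with a running wheel for 12 weeks. How the inactive mice were caged after that age was not given in the sources used here, and if they stayed in shared cages, the effects of running and of the individual cage cannot be told apart. Genotypes were matched for running behavior when muscles were taken.

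The matrix of muscle has several layers. Fibrillar collagens, of which types I and III are the most abundant, form the fibers of the connective tissue sheaths between muscle fibers and bundles. Each muscle fiber and capillary is wrapped in a basement membrane built on networks of type IV collagen and laminin, which nidogen and the proteoglycan perlecan (Hspg2) join, and the fiber holds on to it through integrins and dystroglycan. Small proteoglycans such as decorin bind collagen fibrils, Serpinh1 and Loxl1 help to fold and cross-link matrix proteins, and metalloproteinases such as Mmp2 degrade them under the control of the Timp inhibitors.

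Mstn ranged from 79.7 to 138 normalized reads in the 6 wild-type mice and from 8.70 to 21.6 in the 6 myostatin-reduced mice, without overlap. The values are read counts per gene that the authors scaled to equal trimmed means and did not divide by gene length. The step between low values gave an estimated 9024431 to 12185351 reads per mouse, and 3 reads corresponded to 0.231 to 0.316 normalized reads, a floor that covers counting error only. The 46 matrix genes held 0.215% to 0.317% of the summed values of a mouse. The highest share was in AM mouse 2, which stood apart from the other 11 in Col4a1 and Col4a2, so results that rest on it are given with and without it. The summed markers of slow fibers ranged from 78.3 to 1831 normalized reads among mice and varied inside the groups, with 1370, 94.3 and 312 in the IW mice. Whole muscle was sequenced, and fewer cells of a type cannot be told apart from less RNA per cell.

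Per kilobase of transcript, decorin (Dcn) was the most expressed matrix gene, with a mean level over the mice of 158 normalized reads per kb. Sparc, a collagen-binding glycoprotein, followed at 69.5, then the inhibitors Timp3 at 33.4 and Timp2 at 25.8, the fibrillar chain Col3a1 at 25.3 and the basement membrane chains Col4a1 at 22.6 and Lamb2 at 22.4. Summed per kb over their members, the 15 basement membrane genes reached 131 and the 8 fibrillar collagens 62.3. The 4 small proteoglycans reached 191. All 12 genes under a mean of 10 normalized reads, among them Postn, Nid2, Col6a6 and Col18a1, were at or below 1.98 per kb.

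**Figure D1:**
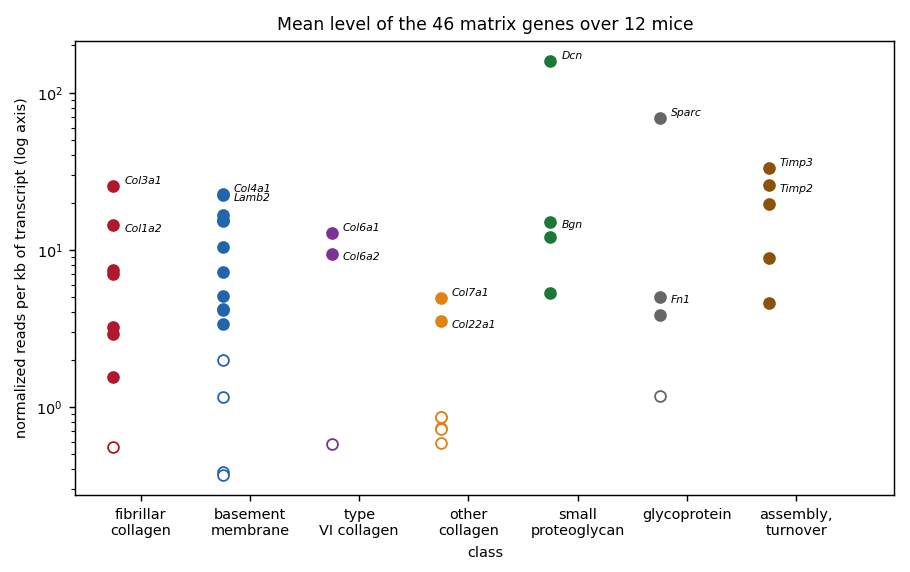
Mean level of the 46 matrix genes over the 12 mice, in normalized reads per kb of transcript on a log axis, by class. Filled points are the 34 tested genes, open points the 12 with a mean under 10 normalized reads, and the 2 highest genes of each class are named. Dcn at 158 lies highest, and the fibrillar and basement membrane classes reach 25.3 and 22.6.

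With activity, 4 of the 34 tested matrix genes (11.8%) were called, against 14.5% of all genes tested. All 4 were lower in active mice, namely Timp2, Col24a1, Col7a1 and Col22a1, and 6.51% of all genes were called lower. Calls needed an adjusted p under 0.05 in limma, a linear model on log2(value + 1) with Benjamini-Hochberg adjustment over the 7247 genes, and log2 changes are on that scale. The median log2 change of the 34 was -0.08, against -0.02 over all genes, with 8 positive and 26 negative values, and -0.13 to -0.04 with 1 mouse left out. Without AM mouse 2 the call was made for 7 matrix genes, against 8.49% of all genes in that fit, with Col1a1, Col1a2, Col3a1 and Lamc1 added and Col22a1 lost.

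**Figure D2:**
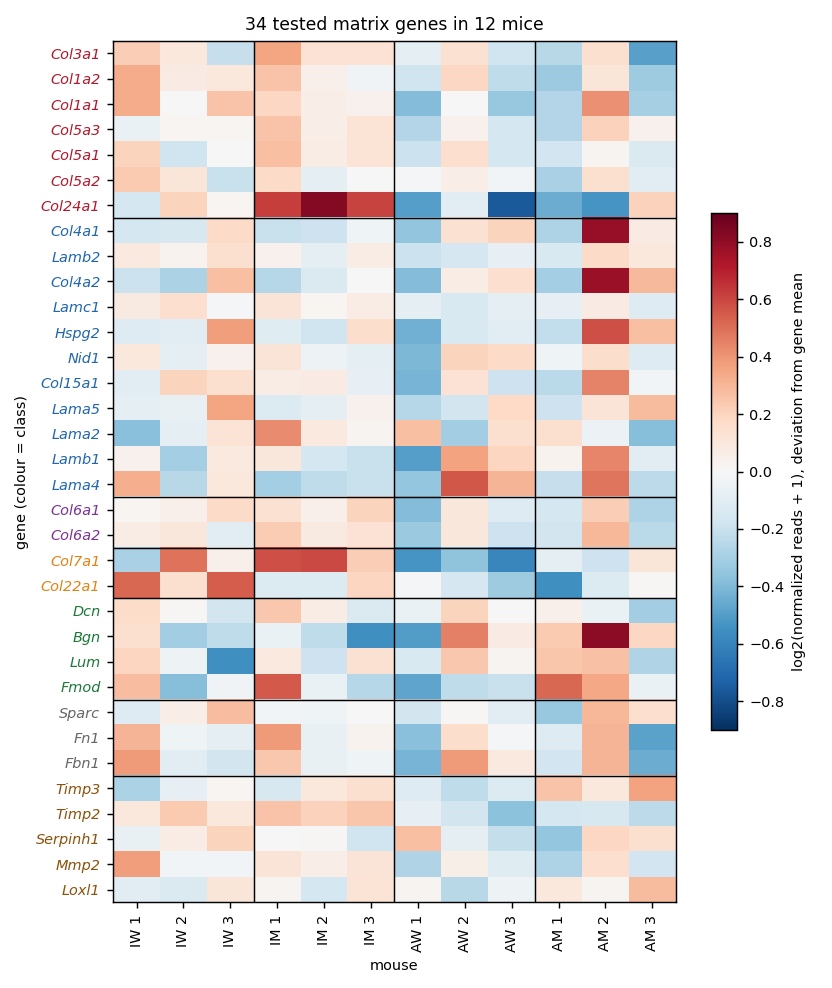
Deviation of log2(normalized reads + 1) from the mean of each gene, for the 34 tested matrix genes (rows, label colour by class) in the 12 mice (columns, 3 per group). The Timp2 row is above its mean in the 6 inactive mice and below it in the 6 active mice, and AM mouse 2 is high in the Col4a1 and Col4a2 rows.

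Fibrillar collagens were represented by 8 genes, of which 7 were tested. All 7 had negative log2 changes with activity, from -0.71 to -0.07 with a median of -0.24, which was -0.32 to -0.17 with 1 mouse left out, but only Col24a1 was called (14.3% of the 7, against 14.5% of all genes). Col24a1, a minor fibrillar chain, had 9.24, 12.2 and 10.6 normalized reads in IW mice 1, 2 and 3, 16.6, 19.3 and 16.4 in IM mice, 7.10, 9.66 and 5.77 in AW mice, and 7.37, 6.91 and 12.2 in AM mice, each in the order of the mouse numbers. In wild-type mice the 3 active values spanned 5.77 to 9.66 and the inactive ones 9.24 to 12.2, so they overlapped. In myostatin-reduced mice every active value, up to 12.2, was below every inactive value, the lowest of which was 16.4. The mean of active mice, 8.17 ± 2.36 (SD, n = 6), was 58.2% of that of inactive mice, 14.1 ± 3.96. Col24a1 fell by 0.71 on the log2 scale (SE 0.143, adjusted p = 0.00785). It reached the mean of at least 10 normalized reads through the inactive groups, and it was also called in a fit without that filter.

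Col1a1 and Col1a2 encode the chains of type I collagen, the main protein of tendon and muscle sheaths. Col1a1 had 55.0, 43.3 and 51.9 normalized reads in IW mice, 49.5, 45.1 and 44.5 in IM mice, 32.8, 43.5 and 34.0 in AW mice, and 36.0, 58.0 and 35.1 in AM mice. The inactive mice lay between 43.3 and 55.0, and 4 of the 6 active mice were below all of them, while AM mouse 2 was the highest of all 12. The log2 change of Col1a1 with activity was -0.29 (SE 0.12, adjusted p = 0.122), and without AM mouse 2 it was -0.41 (adjusted p = 0.0151). Col1a2 had 95.4, 79.8 and 80.7 normalized reads in IW mice, 90.3, 78.1 and 73.8 in IM mice, 66.7, 86.0 and 64.3 in AW mice, and 60.2, 81.6 and 60.3 in AM mice. AW mouse 2 and AM mouse 2 lay among the inactive mice and the other 4 active mice below them. Its log2 change was -0.26 (SE 0.0977, adjusted p = 0.0993), and -0.33 without AM mouse 2 (adjusted p = 0.0394).

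Col3a1, the chain of the thin type III fibrils of the endomysium, had 162, 149 and 120.1 normalized reads in IW mice, 178, 152 and 152 in IM mice, 132, 153 and 123 in AW mice, and 117, 154 and 99.0 in AM mice. The 6 active mice, from 99.0 to 154, overlapped the 6 inactive mice, from 120.1 to 178, and the log2 change was -0.24 (SE 0.107, adjusted p = 0.154). Without AM mouse 2 it was -0.32 (adjusted p = 0.0492). The type V chains, which set the diameter of type I fibrils, had log2 changes of -0.16 for Col5a1, -0.07 for Col5a2 and -0.14 for Col5a3, with adjusted p of 0.209, 0.606 and 0.268. The eighth fibrillar gene, Col11a2, had a mean of 3.36 normalized reads and was not tested.

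The basement membrane class had 15 genes, 11 of them tested, and none was called with activity, against 14.5% of all genes. Its median log2 change was -0.01, with 4 positive and 7 negative values between -0.14 and 0.20, and with 1 mouse left out the median ranged from -0.05 to 0.06. Col4a1, a chain of the type IV network, had 131, 132 and 165 normalized reads in IW mice, 127, 128 and 142 in IM mice, 114, 161 and 168 in AW mice, and 120.4, 253 and 154 in AM mice. AM mouse 2 was the highest and AW mouse 1 the lowest, both among active mice. The log2 change with activity was 0.19 (95% interval -0.15 to 0.52, adjusted p = 0.436), and it was 0.04 without AM mouse 2 and 0.31 without AM mouse 1. Its partner Col4a2 had 92.0, 86.1 and 127 normalized reads in IW mice, 87.7, 96.1 and 106 in IM mice, 80.1, 111 and 117 in AW mice, and 85.0, 181 and 129 in AM mice. The mice fell in nearly the same order, with AM mouse 2 again highest. The log2 change of 0.20 became 0.07 without AM mouse 2 and 0.34 without AM mouse 1, a fit in which Col4a2 was called between AM and IM mice.

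The 2 type IV genes lie head to head, Col4a1 on the minus strand at chr8:11198423-11312826 and Col4a2 on the plus strand at chr8:11312805-11449287 (NCBIM37, the mm9 build), and their annotated starts overlap by 22 bases. The overlap at chr8:11312805-11312826 is shown, plus strand, because it is the stretch that both members share.
Col4a1 and Col4a2 shared start: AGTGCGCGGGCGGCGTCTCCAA
The strandedness of the counting was not stated, but a stretch of this length is small beside transcripts of 6615 and 6450 bases.

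Chains that assemble into one trimer varied together among the 12 mice. For Col4a1 and Col4a2 Pearson's r was 0.961 and Spearman's rho 0.902 (permutation p = 1e-05, the smallest the permutations can give, and 0.00012, adjusted over 8 tests 8e-05 and 0.00048), and r was 0.927 without AW mouse 3 and AM mouse 2, the farthest from the median. For Col1a1 and Col1a2, r was 0.849 and rho 0.769 (adjusted permutation p = 0.0015 and 0.00647), and r was 0.908 without the 2 farthest mice. For Col6a1 and Col6a2, r was 0.875 and rho 0.853 (adjusted permutation p = 0.000533 and 0.0015), and r was 0.751 without the 2 farthest mice. Col1a1 and Col4a1, which belong to different networks, had r of 0.418 and rho of 0.273 (adjusted permutation p = 0.206 and 0.394), and r was -0.21 without AW mouse 1 and AM mouse 2. The permutations shuffled all 12 mice without regard to group. Computed from deviations from the group means, r was 0.961, 0.910 and 0.843 for the trimer pairs in this order. It was 0.737 for Col1a1 and Col4a1, so inside the groups these chains varied together too.

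Laminins are trimers of an alpha, a beta and a gamma chain, and 6 chains were tested. Lamb2, a beta chain of muscle and synaptic basement membrane, had 134, 128 and 139 normalized reads in IW mice, 129, 118 and 132 in IM mice, 110.1, 113 and 119.7 in AW mice, and 114, 142 and 134 in AM mice. The AW mice, from 110.1 to 119.7, were lower than the IW mice, from 128 to 139, and 2 of the 3 AM mice were above the AW mice. The log2 change with activity was -0.09 (SE 0.0572, adjusted p = 0.292). Lamc1, the gamma chain shared by most laminins, had a mean of 112 ± 6.07 (SD, n = 6) in active and 124 ± 5.17 in inactive mice, a log2 change of -0.14 (SE 0.0478, adjusted p = 0.063) that was -0.17 without AM mouse 2 (adjusted p = 0.0412).

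Lama2, the alpha chain of the muscle fiber's own basement membrane, had 30.7, 37.9 and 44.0 normalized reads in IW mice, 54.4, 42.9 and 40.9 in IM mice, 48.7, 32.2 and 44.5 in AW mice, and 44.7, 38.7 and 30.6 in AM mice. The values of all 4 groups overlapped. Its log2 change was -0.07 with activity (95% interval -0.34 to 0.21) and 0.08 with genotype (-0.19 to 0.36). The remaining chains Lama4, Lama5 and Lamb1 had log2 changes of 0.19, -0.01 and 0.14 with activity and none was called.

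Perlecan, the largest proteoglycan of basement membranes (Hspg2), had 196, 198 and 276 normalized reads in IW mice, 197, 188 and 237 in IM mice, 157, 193 and 199 in AW mice, and 182, 318 and 256 in AM mice. AM mouse 2 was highest and AW mouse 1 lowest, and the log2 change with activity was -0.01 (95% interval -0.30 to 0.28). Nid1, which links laminin to type IV collagen, had a log2 change of -0.01 and Col15a1, a collagen that anchors the basement membrane to the fibrils, of -0.10. Markers of endothelial cells, which build basement membrane too, summed to 678 normalized reads in AM mouse 2 and to 341 to 461 in IW, 307 to 336 in IM, 349 to 590 in AW and 408 to 678 in all AM mice. All 10 endothelial markers were measured, and 7 of the 9 tested were called higher with activity (77.8%, against 7.99% of all genes). Their part in the values of the basement membrane genes was not tested.

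Type VI collagen forms beaded filaments around the muscle fiber. Col6a1 had 52.9, 53.7 and 58.8 normalized reads in IW mice, 57.3, 53.7 and 59.9 in IM mice, 39.5, 56.1 and 48.1 in AW mice, and 46.6, 61.0 and 42.9 in AM mice. AW mouse 2 and AM mouse 2 lay within the range of the inactive mice or above it and the other 4 active mice below it, and the log2 change was -0.20 (SE 0.0945, adjusted p = 0.167). Col6a2 had 45.7, 47.0 and 40.9 normalized reads in IW mice, 51.4, 46.2 and 47.9 in IM mice, 34.5, 47.0 and 38.3 in AW mice, and 38.9, 53.9 and 36.8 in AM mice. Active and inactive mice overlapped, and the log2 change was -0.17 (adjusted p = 0.25).

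Col7a1 and Col22a1, collagens outside the fibrillar and network types, were both called. Col7a1, the chain of the anchoring fibrils, had 35.7, 61.9 and 45.2 normalized reads in IW mice, 66.0, 66.8 and 51.2 in IM mice, 30.1, 33.9 and 28.9 in AW mice, and 41.4, 38.5 and 47.4 in AM mice. Within wild-type mice all 3 active values were below all 3 inactive values, and the same held within myostatin-reduced mice, although the 6 active and 6 inactive mice overlapped when pooled. The mean of active mice was 36.7 ± 7.09 (SD, n = 6), or 67.4% of the 54.5 ± 12.5 of inactive mice, and Col7a1 fell by 0.54 on the log2 scale (SE 0.117, adjusted p = 0.0106). A microRNA gene, Mir711, overlaps its exons.

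Col22a1, a collagen of tissue junctions such as that between muscle and tendon, had 43.5, 33.4 and 44.4 normalized reads in IW mice, 27.6, 27.7 and 34.7 in IM mice, 30.0, 27.1 and 23.9 in AW mice, and 20.3, 27.6 and 30.4 in AM mice. The 3 IW mice included the highest values, and in wild-type mice active and inactive values did not overlap, while in myostatin-reduced mice they did. The mean was 26.6 ± 3.84 (SD, n = 6) in active and 35.2 ± 7.38 in inactive mice, and Col22a1 fell by 0.38 on the log2 scale (SE 0.109, adjusted p = 0.0353). The call was lost in 8 of the 12 fits that left out 1 mouse, AM mouse 2 among them, with adjusted p up to 0.091. Of the 8 tendon markers listed, 2 were measured, and Thbs4 ranged from 11.3 to 21.6 and Scx from 1.34 to 4.70 normalized reads. How much tendon or junction each piece of muscle held was not tested.

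With the slow-fiber score of each mouse as a covariate, log2 changes with activity were -0.55 for Col24a1, -0.39 for Col7a1 and -0.36 for Col22a1 and none of the 3 was called (adjusted p = 0.0555, 0.0705 and 0.135), whereas Timp2 stayed called. Col1a1, at -0.46 (adjusted p = 0.033), and Mmp2, at -0.34 (adjusted p = 0.0418), were called in that fit, where 3 of 34 matrix genes and 5.53% of all genes were called. All 11 slow-fiber markers had positive log2 changes with activity, with a median of 1.80, but only Casq2 was called (9.09%, against 14.5% of all genes). Their sums overlapped, at 94.3 to 1370 normalized reads in IW, 78.3 to 112 in IM, 151 to 1831 in AW and 117 to 1343 in AM mice.

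**Figure D3:**
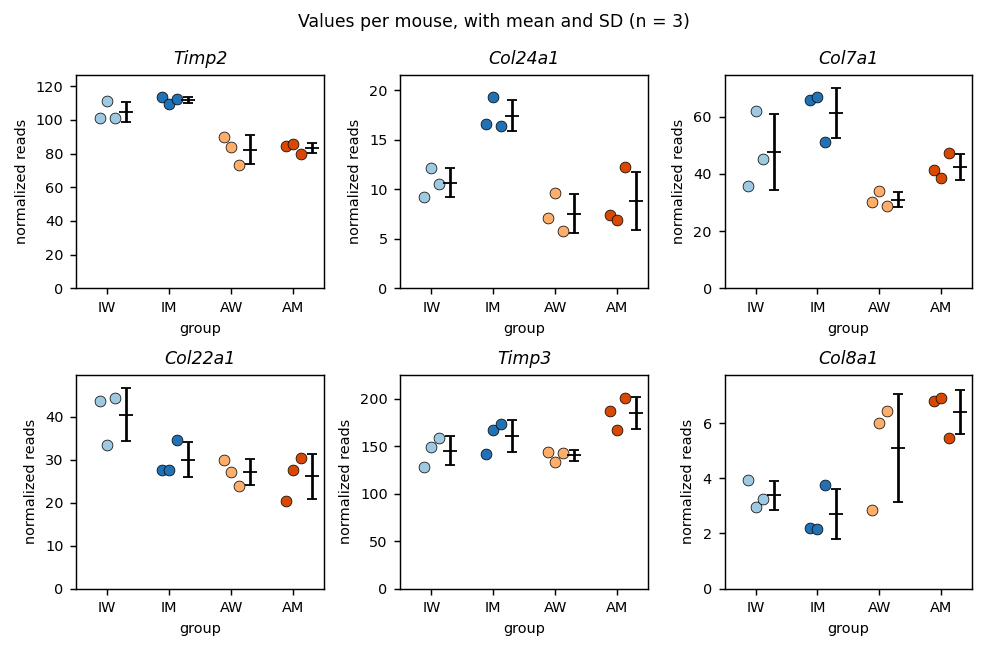
Normalized reads of the 5 called matrix genes and of Col8a1 in each of the 12 mice, with the mean and SD of each group (n = 3) as bars and each axis starting at 0. Timp2 lies at 101 to 113 in inactive and 73.1 to 89.9 in active mice, and Timp3 at 167 to 201 in the AM mice, above the 134 to 144 of the AW mice.

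The matrix metalloproteinase inhibitor Timp2, which also takes part in activating Mmp2 at the cell surface, had the smallest p of the class of assembly and turnover genes and of all 34. Timp2 had 101, 111 and 101 normalized reads in IW mice, 113, 109.6 and 113 in IM mice, 89.9, 84.1 and 73.1 in AW mice, and 84.6, 85.5 and 80.0 in AM mice. Every active mouse was below every inactive mouse, and Timp2 was the only gene of the 34 tested without overlap between the 6 active and the 6 inactive mice, against 4.29% of all genes tested. The mean of active mice, 82.9 ± 5.75 (SD, n = 6), was 76.6% of the 108 ± 5.62 of inactive mice. Timp2 fell by 0.38 on the log2 scale (SE 0.0544, adjusted p = 0.00179), and by 0.34 to 0.41 when each of the 12 mice was left out in turn.

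Of the other genes of assembly and turnover, Mmp2, a gelatin- and collagen IV-degrading protease, had a log2 change of -0.21 (SE 0.0929, adjusted p = 0.156) and was called with the slow-fiber score as a covariate. The collagen chaperone Serpinh1 was at 47.0 normalized reads in both active and inactive mice (log2 change -0.01, 95% interval -0.24 to 0.22). Loxl1, an enzyme that cross-links elastic fibers, had a log2 change of 0.05 (-0.13 to 0.22), and Timp3 of 0.08 (-0.07 to 0.23).

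Upstream sequences of Timp2, Col24a1 and Col7a1, called lower in active mice, are shown so that their letters can be compared. They were taken from RefSeq on GRCm38.p6, as the 250 bases before the annotated start, on the strand of the gene, for Timp2 at chr11:118355412-118355661 (minus strand), Col24a1 at chr3:145292222-145292471 (plus strand) and Col7a1 at chr9:108953336-108953585 (plus strand). Capitals mark matches, on either strand, to the GC box GGGCGG, the CCAAT box CCAAT, the TATA box TATAAA and the SMAD element CAGACA, none of which overlaps another in these windows.
Timp2: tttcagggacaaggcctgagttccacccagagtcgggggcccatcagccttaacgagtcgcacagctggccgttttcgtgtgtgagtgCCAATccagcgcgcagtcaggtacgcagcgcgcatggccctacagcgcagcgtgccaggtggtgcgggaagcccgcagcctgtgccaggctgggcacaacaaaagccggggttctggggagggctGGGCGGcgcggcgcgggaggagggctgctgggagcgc
Col24a1: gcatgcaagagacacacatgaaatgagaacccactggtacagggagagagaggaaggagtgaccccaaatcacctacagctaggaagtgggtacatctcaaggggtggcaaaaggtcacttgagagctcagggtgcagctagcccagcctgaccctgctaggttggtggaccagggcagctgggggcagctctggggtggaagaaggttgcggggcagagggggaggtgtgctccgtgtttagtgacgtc
Col7a1: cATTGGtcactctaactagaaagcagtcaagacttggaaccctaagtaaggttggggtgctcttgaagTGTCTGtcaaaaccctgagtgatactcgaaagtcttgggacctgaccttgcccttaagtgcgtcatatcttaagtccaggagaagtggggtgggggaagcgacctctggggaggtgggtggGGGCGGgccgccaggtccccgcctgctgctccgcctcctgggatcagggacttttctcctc
Timp2 held 1 GC box and 1 CCAAT box, Col7a1 held 1 GC box, 1 CCAAT box and 1 SMAD element, and Col24a1 held none of the 4 motifs. Upstream windows were found for 33 of the 46 matrix genes, 37 windows in all. Among these, 21 held a GC box (56.8%, against 32.7% of 32851 windows of the same length), 11 a CCAAT box (29.7% against 33.9%), 3 a TATA box (8.11% against 12.4%) and 10 a SMAD element (27.0% against 17.1%). A match describes the letters only.

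The 4 small proteoglycans, which coat collagen fibrils and regulate their thickness, were all tested and none was called with activity, against 14.5% of all genes. Dcn, decorin, had 311, 278 and 246 normalized reads in IW mice, 328, 289.9 and 253 in IM mice, 265, 318 and 277 in AW mice, and 286, 265 and 223 in AM mice. All groups overlapped and the log2 change with activity was -0.06 (95% interval -0.25 to 0.12). Biglycan (Bgn), a proteoglycan related to decorin, had 38.1, 27.6 and 29.2 normalized reads in IW mice, 33.0, 29.2 and 23.1 in IM mice, 24.0, 47.6 and 36.3 in AW mice, and 40.6, 61.0 and 39.3 in AM mice. AM mouse 2 was highest and the 3 AM mice were all above the inactive mice, but AW mouse 1 was among the lowest. Its log2 change with activity was 0.42 (SE 0.164, adjusted p = 0.107), the largest positive value of the 34, and it was called without AW mouse 1 (0.54, adjusted p = 0.018). Lum and Fmod, which share binding sites on fibrils, had log2 changes of 0.12 and -0.03.

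Of the glycoproteins, Sparc had 146, 165 and 192 normalized reads in IW mice, 156, 154 and 158 in IM mice, 142, 159.6 and 148 in AW mice, and 125, 195 and 176 in AM mice. AM mouse 2 was the highest and AM mouse 1 the lowest, and the log2 change with activity was -0.05 (95% interval -0.26 to 0.16). Fibronectin (Fn1), an adhesive protein of the provisional matrix, had 51.1, 39.9 and 38.6 normalized reads in IW mice, 53.9, 39.3 and 42.1 in IM mice, 31.4, 46.1 and 40.5 in AW mice, and 37.9, 51.1 and 29.1 in AM mice. The groups overlapped and the log2 change was -0.18 (adjusted p = 0.415). Fibrillin-1 (Fbn1), the core of microfibrils, had a log2 change of -0.08. Periostin (Postn), a matrix protein of remodeling connective tissue, had 3.93, 3.60 and 3.44 normalized reads in IW mice, 2.42, 2.25 and 3.28 in IM mice, 1.90, 3.84 and 6.03 in AW mice, and 3.86, 7.09 and 3.62 in AM mice. All values were above the floor of 3 reads but under the mean of 10 normalized reads needed for the test. In a fit without that filter its log2 change was 0.32 with activity (adjusted p = 0.33) and 0.64 between AM and IM mice (adjusted p = 0.189).

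Among the 12 genes that were not tested for low values, Col8a1, a short-chain collagen of vessels, was chosen after its values were seen. Col8a1 had 3.95, 2.95 and 3.24 normalized reads in IW mice, 2.21, 2.18 and 3.77 in IM mice, 2.86, 6.02 and 6.43 in AW mice, and 6.80, 6.93 and 5.48 in AM mice. In myostatin-reduced mice all active values were above all inactive values, and in wild-type mice AW mouse 1 was below all 3 IW mice. In a fit without the filter on low values, where 10.7% of 10187 genes were called, Col8a1 was 0.72 higher on the log2 scale with activity (SE 0.168, adjusted p = 0.0166). In myostatin-reduced mice the difference was 1.01 (adjusted p = 0.0281, against 5.74% of genes called). Of the other 11, none was called with activity in that fit. Col6a6, a type VI chain, lay at 3.08 to 4.15 normalized reads in active and at 4.17 to 6.39 in inactive mice, without overlap, against 3.49% of the 10187 genes, but the gap was small beside the spread of the groups. Its log2 change was -0.31 (adjusted p = 0.0806). Col9a1, a cartilage collagen, lay at 1.47 to 2.74 in active and at 2.75 to 4.27 in inactive mice. In every gene of the table the highest group mean was at least 3.00, and the IW mean of Col8a1, 3.38, was above that. The means of Col9a1 were 2.12 in AW and 2.28 in AM mice, below that level, so its place in the table rests on the inactive groups. Its difference was not called in the fit without the filter and is given without a p-value.

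**Figure D4:**
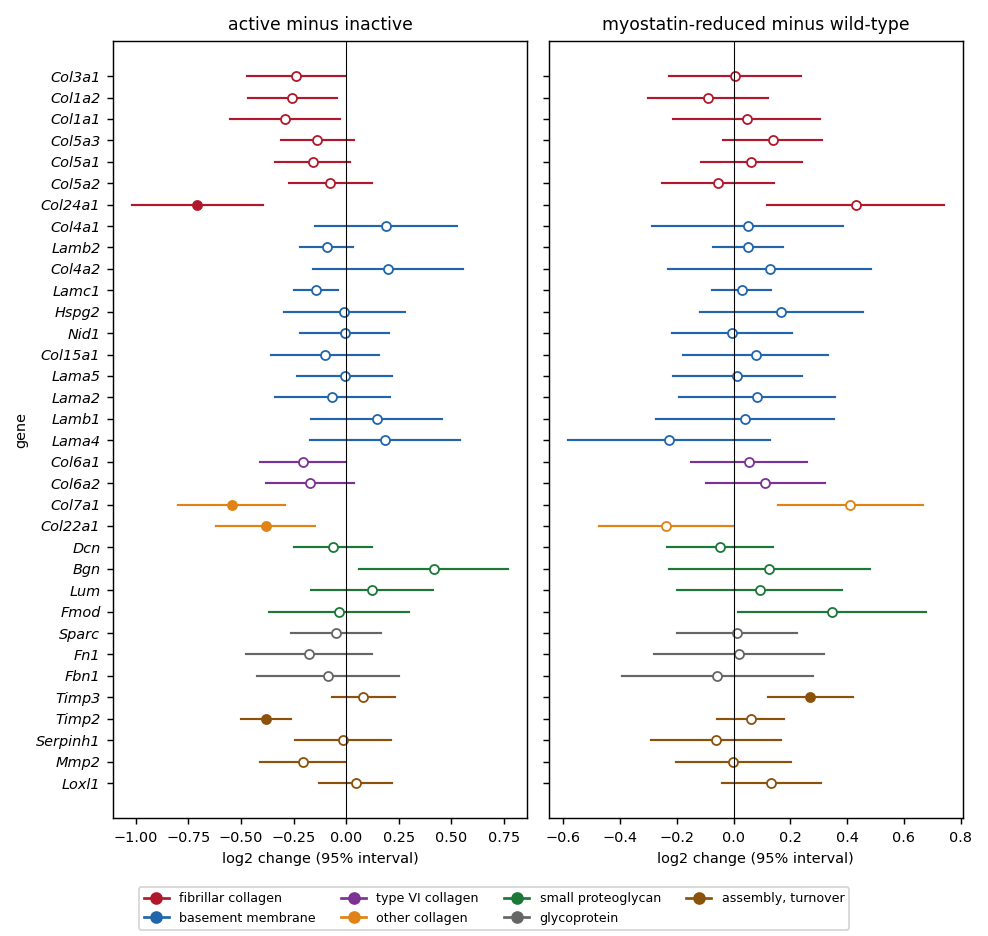
Log2 change of the 34 tested matrix genes with activity (left) and genotype (right), with 95% intervals, coloured by class. Filled points are called at an adjusted p under 0.05 over all genes, 4 on the left, all negative, and 1 on the right, Timp3.

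The ratio of Col1a1, a fibrillar chain, to Col4a1, a basement membrane chain, was lower in active than in inactive mice, while the ratios of other chains of the same networks overlapped. The ratio of Col1a1 to Col4a1 in normalized reads was 0.4195, 0.3278 and 0.3155 in IW mice, 0.3895, 0.352 and 0.313 in IM mice, 0.2865, 0.2702 and 0.2017 in AW mice, and 0.2991, 0.2293 and 0.2278 in AM mice. Every active mouse was below every inactive mouse, AM mouse 2 included. Active minus inactive, the log2 ratio, with 1 added to each value, was -0.48, with p = 0.005 in a two-sided exact permutation test within genotypes, the smallest that its 400 arrangements allow, and 0.015 adjusted over the 3 tests of the ratio. With genotype the difference was -0.0034 (exact permutation p = 0.96) and for the interaction it was 0.0005 (exact permutation p = 0.995). The pair was chosen with earlier results of these mice known, and neither the p-value nor its adjustment allows for that choice. Col1a2 to Col4a2, the partner chains, ranged from 0.451 to 0.833 in active and from 0.636 to 1.04 in inactive mice, and Col3a1 to Col4a1 from 0.607 to 1.15 and from 0.730 to 1.40. In each, 3 of the 6 active mice were above the lowest inactive mouse, IW mouse 3. The log2 differences with activity, -0.45 and -0.43, did not pass the threshold (exact permutation p = 0.05 and 0.075). Both further ratios were chosen after the data were seen.

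Over the whole classes the separation was less complete. The median deviation of the 7 fibrillar genes from their means was 0.22, 0.08 and 0.02 in IW mice, 0.26, 0.06 and 0.12 in IM mice, -0.20, 0.06 and -0.18 in AW mice, and -0.27, 0.14 and -0.13 in AM mice, in log2 units. All 6 inactive mice were above 0 and 4 of the 6 active mice below it. For the 11 basement membrane genes it was -0.09, -0.08 and 0.14 in IW mice, 0.04, -0.09 and 0.01 in IM mice, -0.35, 0.07 and 0.15 in AW mice, and -0.19, 0.44 and -0.03 in AM mice. Here AW mouse 1 was the lowest and AM mouse 2 the highest. The fibrillar median was the higher of the pair in 5 of the 6 inactive mice and in 1 of the 6 active mice. These medians carry no test.

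**Figure D5:**
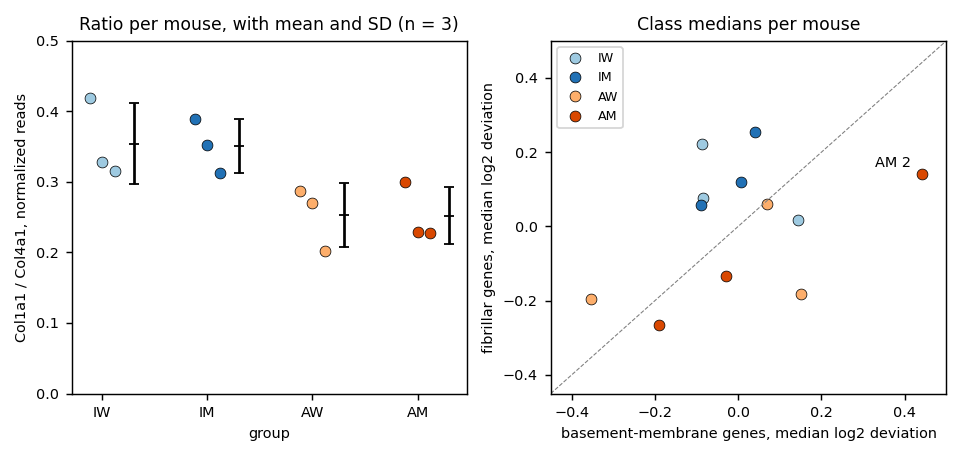
Left, ratio of Col1a1 to Col4a1 in each mouse with the mean and SD of each group (n = 3). Right, median log2 deviation of the 7 fibrillar genes against that of the 11 basement membrane genes in each mouse, with the dashed line of equality. The ratio lies at 0.313 or above in inactive and at 0.299 or below in active mice, and AM mouse 2 lies farthest right at 0.44.

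The collagens of the classes also differ in the length of the Gly-X-Y repeat that winds into the triple helix, as a script read it from the translated reference transcripts. The longest unbroken run had 1011 to 1032 residues in 7 of the 8 fibrillar chains and 648 in Col24a1. It had 339 residues in Col22a1, 261 in Col6a1 and Col6a2, 225 in Col7a1, and 120 and 198 in Col4a1 and Col4a2, whose helices are interrupted. The 3 called collagens thus differed in this length.

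With genotype, 1 of the 34 matrix genes (2.94%) was called, against 5.78% of all genes. It was Timp3, an inhibitor that binds to the matrix itself, and 3.57% of all genes were called higher in myostatin-reduced mice. No matrix gene separated the 6 myostatin-reduced from the 6 wild-type mice, which 2.39% of all genes did. The median log2 change was 0.05, with 25 positive and 9 negative values, against -0.0049 over all genes. This lean rested on single mice, as 15 of the 34 were positive without AM mouse 2, with a median of -0.01, and 18 without AW mouse 1, with a median of 0.01. Timp3 had 128, 149 and 158 normalized reads in IW mice, 142, 167 and 173 in IM mice, 144, 134 and 143 in AW mice, and 187, 167 and 201 in AM mice. The AM mice were all above the AW mice, whereas the IM and IW mice overlapped. The mean was 173 ± 20.2 (SD, n = 6) in myostatin-reduced and 143 ± 10.7 in wild-type mice, and Timp3 rose by 0.27 on the log2 scale (SE 0.0695, adjusted p = 0.0415). The call was lost in 8 of the 12 fits that left out 1 mouse (adjusted p up to 0.105) and with the slow-fiber score as a covariate (0.22, adjusted p = 0.0899). Exons of Syn3 overlap those of Timp3 in the annotation, so reads of the 2 genes could have been mixed.

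Genes next in order by p were Col7a1 and Col24a1. Col7a1 was 0.41 higher on the log2 scale in myostatin-reduced mice (SE 0.117, adjusted p = 0.0603), and every AM value was above every AW value. Col24a1 was 0.43 higher (SE 0.143, adjusted p = 0.101), and its 3 IM values were above those of the other 9 mice. For the fibrillar chains Col1a1 and Col3a1 the log2 changes with genotype were 0.05 (95% interval -0.21 to 0.31) and 0.0044 (-0.23 to 0.24).

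For the interaction of activity with genotype 0 of the 34 matrix genes and 0% of all genes were called in limma, with 1 and 297 at an unadjusted p under 0.05. The matrix gene was Lamb2. Its activity difference was 0.26 higher in the myostatin-reduced genotype than in the wild-type (SE 0.114, adjusted p = 0.89). For Hspg2 the interaction was 0.52 (SE 0.265, adjusted p = 0.89), and 0.34 without AM mouse 2. Among the 11 basement membrane genes 10 interaction values were positive, with a median of 0.26, against a median of -0.01 over all genes. Without AM mouse 2, 7 of the 11 were positive and the median was 0.01. The 9 endothelial markers tested had interaction values from 0.34 to 0.69, all positive, and from 0.17 to 0.49 without that mouse. Interaction values were also positive for all 6 mural markers (0.36 to 1.23) and all 3 markers of Schwann cells and nerve (0.80 to 2.00, each at an unadjusted p under 0.05). They were positive for all 11 slow-fiber markers (0.53 to 1.56), but for 8 of 11 without AM mouse 2. The slow-fiber median of 1.07 became -0.12 without AW mouse 1. All 6 fibroblast markers had negative values (-0.46 to -0.10). The part of all these markers in the values of the basement membrane genes was not tested.

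Pairwise differences share mice and are given side by side. Between AW and IW mice 0 of the 34 matrix genes were called in limma, with 7 at an unadjusted p under 0.05 (1067 of the 7247 genes tested), and 0.0276% of all genes were called. The smallest p were those of Timp2 (-0.34, adjusted p = 0.0846) and Col22a1 (-0.56, adjusted p = 0.12). Between AM and IM mice 2 of 34 were called, against 7.84% of all genes, and both were lower in AM mice, as were 2.53% of all genes. Timp2 fell by 0.42 (adjusted p = 0.00926) and Col24a1 by 0.94 (adjusted p = 0.0184), the latter not called without AM mouse 2 or without any 1 of the IM mice (adjusted p up to 0.0936). In that comparison 9 of the 11 basement membrane genes had positive log2 changes, with a median of 0.13, and 6 of 11 without AM mouse 2, with a median of 0.02. Without AM mouse 1 the median was 0.26. None of the 7 fibrillar genes had a positive value with or without AM mouse 2.

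Between IM and IW mice 0 of 34 were called in limma, against 2.51% of all genes, with 3 at an unadjusted p under 0.05 (1262 of all genes). Col24a1 was at 0.67 (adjusted p = 0.113) and Col22a1 at -0.42 (adjusted p = 0.18). Between AM and AW mice it was 0 of 34, against 0.207% of all genes, with 5 at an unadjusted p under 0.05 (894 of all genes), and Timp3 was at 0.40 (adjusted p = 0.166) and Col7a1 at 0.44 (adjusted p = 0.325). Between AM and IW mice, which differ in both factors, Timp2 was the 1 matrix gene called (2.97% of all genes were called, 1.74% lower). It fell by 0.32 (adjusted p = 0.0447), and the call was lost in 10 of the 12 fits that left out 1 mouse (adjusted p up to 0.169). Col22a1 fell further, by 0.62, but was not called (adjusted p = 0.0506). With a pseudocount of 5 or with median-of-ratios scaling both genes were called. Between IM and AW mice 3 of 34 were called, against 18.7% of all genes, and all were higher in IM mice, as were 9.52% of all genes. Their log2 differences were 0.96 for Col7a1 (adjusted p = 0.00304), 0.44 for Timp2 (0.00308) and 1.14 for Col24a1 (0.0034). With the slow-fiber score as a covariate Col24a1 was not called in this comparison.

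Other genes of the matrix pathway were read from lists of related genes. None of the 8 tested genes of collagen processing was called with activity or genotype, against 14.5% and 5.78% of all genes. Of 13 further matrix proteins, 1 was called with activity (7.69%, against 14.5% of all genes), the calcification inhibitor Mgp (0.52 higher, adjusted p = 0.0314). With genotype 2 of the 13 were called (15.4%, against 5.78% of all genes). Cilp, a matrix protein of cartilage, fell by 0.85 (adjusted p = 0.0158) and Cyr61, a matricellular protein, by 0.89 (adjusted p = 0.0189). Among 14 matrix receptors 3 were called with activity (21.4%, against 14.5% of all genes). Of the laminin receptors called, Dag1, dystroglycan, fell by 0.18 (adjusted p = 0.0453) and Bcam was 0.47 higher (adjusted p = 0.0421). The integrin chain Itgb5 fell by 0.17 with activity (adjusted p = 0.0303). With genotype 2 of the 14 were called (14.3%, against 5.78% of all genes), as Itgb5 fell by 0.31 (adjusted p = 0.00393) and Dag1 was 0.21 higher (adjusted p = 0.0385). Of 15 genes of TGF-beta signaling, a main inducer of collagen genes, 3 were called with activity (20%, against 14.5% of all genes). All 3 were lower, as were 6.51% of all genes, namely Tgfb2 (-0.27, adjusted p = 0.0136), Tgfb3 (-0.21, adjusted p = 0.0144) and the latent binding protein Ltbp3 (-0.23, adjusted p = 0.0237). Whether these changes bear on the collagen genes was not tested. No protease was called with activity or genotype among the 4 tested, against 14.5% and 5.78% of all genes. Between AM and IM mice 1 was called, against 7.84% of all genes, namely Adamts5, which fell by 0.38 (adjusted p = 0.0436).

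Summed markers of fibroblasts, the main source of fibrillar collagen, lay between 743 and 861 in IW, 732 and 892 in IM, 763 and 868 in AW and 573 and 719 in AM mice, for 9 of the 11 markers listed. Of the 6 tested, 3 had positive and 3 negative log2 changes with activity, and 1 was called (16.7%, against 14.5% of all genes), Ly6a, which was higher by 0.29 (adjusted p = 0.024). Gsn, which made up most of each sum at 431 to 705 normalized reads, fell by 0.38 between AM and IM mice (adjusted p = 0.0423). Their part in the values of the matrix genes was not tested.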

How the data were processed

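Polyadenylated RNA from triceps brachii was sequenced single-end by the authors (Illumina Genome Analyzer IIx). Reads were mapped with CASAVA (version not stated) to mm9 and counted in RefSeq exons summed to genes. The deposited values are a signal, normalized read counts that the authors scaled to equal trimmed means. Low values were whole multiples of a step for 89.1% to 91.5% of values under 5 (tolerance 0.006), so whole reads were not recovered for nearly all genes and no count model was used.

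Groups and mouse numbers came from the sample titles. Log2(value + 1) was fitted with limma 3.58.1 in R 4.3.3 (lmFit, contrasts.fit, eBayes with trend, 1 mean per group, 12 mice) for 7247 genes with a mean of at least 10, and was tested on simulated data. P-values are two-sided. The study's own isoform tests used another mapping of the reads and were not repeated. The ratio was tested by exact permutation in Python 3.11.15. Members and gene lists were chosen with earlier results of these data known. Full values were given for called genes, the 2 highest of each class per kb and the 2 smallest p where no gene was called. They were also given for Col1a1, Col3a1, Col4a1, Lama2, Postn and Col22a1 and, outside these rules, for Col4a2 and Col8a1. Positions and lengths came from the NCBIM37 gene annotation, matched by symbol.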

Additional observations from a re-analysis of the deposited data

How the results depend on the processing

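The 9 comparisons were refitted under 22 other settings, 12 of which left out 1 mouse. The number of matrix genes called with activity was 2 at a mean of at least 50, a filter that leaves fewer genes to test and gained the call of Lamc1, 6 with sample weights, which added Lamc1 and Bgn, and 3 to 7 with 1 mouse left out, 7 without AM mouse 2. With genotype it was 0 without a trend in the spread, 2 with sample weights, 0 with the slow-fiber covariate and 0 to 1 with 1 mouse left out. Between AW and IW mice it was 1 at a mean of at least 50, 3 with sample weights and 0 to 1 with 1 mouse left out, and between AM and IM mice 1 at a mean of at least 50, 1 with the slow-fiber covariate, 3 with sample weights and 1 to 3 with 1 mouse left out. For AM against IW it was 2 with a pseudocount of 5, 2 with median-of-ratios scaling, 0 without a trend, 0 with sample weights, 3 with the slow-fiber covariate and 0 to 2 with 1 mouse left out. For IM against AW it was 1 at a mean of at least 50, 5 with sample weights and 3 to 4 with 1 mouse left out. The slow-fiber covariate lost the call of Col24a1 in this comparison. Without the filter on low values Col18a1 was called there too (0.66 higher in IM mice in limma, adjusted p = 0.0399). The causes of the other shifts were not tested.

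The log2 ratio of Col1a1 to Col4a1 differed with activity by -0.55 to -0.40 with 1 mouse left out, with genotype by -0.0797 to 0.0596 and for the interaction by -0.1521 to 0.0998, which was -0.0161 with a pseudocount of 5. With Col1a2 to Col4a2 in its place, chosen after seeing the data, the activity difference was -0.4537 and the interaction -0.3930, and with Col3a1 to Col4a1 these were -0.4284 and -0.6221, none of them past the threshold (exact permutation p = 0.05 to 0.295). Activity changes near 0 turned sign with 1 mouse left out for 8 of the 34 matrix genes, namely Lama2 (-0.132 to 0.0211), Sparc (-0.1152 to 0.0447), Fbn1, Fmod, Hspg2, Lama5, Nid1 and Serpinh1. Titles number the mice 1 to 3 in each group, and equal numbers do not mark the same mouse. Deviations of same-numbered mice correlated at -0.605 to 0.484, over 0.1 in 9 of 18 pairs, and a fit with the replicate block called 4 matrix genes with activity, 1 with genotype, 0 for the interaction, 0 between AW and IW, 2 between AM and IM, 0 between IM and IW, 0 between AM and AW, 1 between AM and IW and 3 between IM and AW, as without it.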
